A study of Canis lupus familiaris with 17 samples.

Results

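The count table of the dog olfactory epithelium names most of its features by Ensembl-style gene IDs, and 208 by a chromosome, or "un" for unplaced, and a running number. The 78 of these that lie outside chromosomes 5, 14, 18, 20 and 21 are described here, of 32912 features in all. They were taken by the start of their ID alone. Chromosome 27 holds 10 of them, the unplaced group 15, and the other 53 are spread over 17 chromosomes with 1 to 7 each. RNA came from the olfactory epithelium, the sheet at the back of the nose that carries the odour-sensing neurons, of 17 domestic dogs of several breeds. By labelled weight class, 8 dogs were Below_10 (5 to 9.79 kg) and 9 Over_10 (10.21 to 44 kg). Below_10 held 2 dachshunds, a Pomeranian, Jack Russel terrier, miniature schnauzer, Chinese crested, poodle and rat terrier. Over_10 held 2 Labradors, a Doberman pinscher, cocker spaniel, beagle, bulldog terrier, German shepherd, English pointer and basset hound. No labelled breed occurred in both classes, so weight class and breed cannot be told apart. By a scent code whose meaning the labels do not give, 10 dogs were code 0 and 7 code 1. The classes were not balanced over the codes, with 6 Below_10 and 4 Over_10 dogs of code 0 and 2 Below_10 and 5 Over_10 dogs of code 1, and both Below_10 dogs of code 1 were dachshunds. The labels give 6 batches, of which batch 1 held Below_10 dogs alone and batch 5 a single Over_10 dog. No dog carried a labelled treatment or allele, and labelled age, which has no stated unit, ran from 0.5 to 14.

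Olfactory receptors are G protein-coupled receptors that bind odorants at the cilia of olfactory neurons. Each mature neuron is known to express mainly 1 receptor gene, so the RNA of a single receptor comes from a small part of the cells in a tissue sample. Receptor genes lie in tandem clusters on many chromosomes, and dogs have a large set of them. The files do not pair these features with gene names, and nothing in them says that the 78 are receptor genes. In the RefSeq gene table of assembly UU_Cfam_GSD_1.0, 893 genes have a symbol beginning with OR or cOR, a number and a letter. Of these, 283 lie on the 18 chromosomes concerned. Genes with symbols of another form are not counted, so these are counts of symbols. Chromosome 27 has 38 such genes, chromosome 16 has 30, and chromosomes 15 and 30 have 26 each. Chromosome 31, which has 1 feature here, has 0. Near-identical copies of a gene family can share reads, and feature lengths are not given. Levels and shares are therefore amounts of reads, in which a longer feature takes more, and each feature was compared with itself across dogs. Markers of neurons, basal, sustentacular, respiratory and immune cells could not be checked, because the IDs could not be matched to symbols. In bulk tissue, fewer cells of a type and less RNA per cell cannot be told apart.

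Library totals ran from 10536639 to 31637925 counts. The largest were those of the dachshund of batch 1 (31637925), the cocker spaniel (29240086) and the Labrador of batch 5 (20809138). The names of these libraries, and of the beagle's, end in rep1, a suffix that no other library has and whose meaning is not given. Libraries without the suffix had at most 13209206 counts. The 3 libraries with the lowest trimmed-mean scaling factors, 0.517, 0.727 and 0.757, were those of the dachshund of batch 1, the Pomeranian and the cocker spaniel, against 1.03 to 1.14 in the other 14. These same 3 libraries had the highest summed levels of the 78 features after scaling, in which a low factor itself raises the level. As an unscaled share of a library's counts, the Chinese crested (0.0253%) lay above the Pomeranian (0.0246%) and the cocker spaniel (0.0198%). The dachshund of batch 1 also had the lowest RNA integrity number, 5.9.

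Before the comparisons, 2 libraries have to be set apart. The cocker spaniel, an Over_10 dog of scent code 0 in batch 2, and the dachshund of batch 1, a Below_10 dog of scent code 1, had nearly the same profile over these features. Of 44 features with at least 20 reads in that dachshund, the cocker spaniel's reads were between 0.400 and 1.33 times the dachshund's, with a median of 0.720, and all 44 lay within 2-fold of that median. In the Pomeranian, labelled with the same batch as the dachshund, 24 of 44 lay within 2-fold of its median ratio of 0.215. The range was 0.0196 to 4.07. Over the 62 features with at least 20 reads in total, Spearman's rho between cocker spaniel and dachshund was 0.98. The next of the 136 pairs of dogs, Chinese crested and poodle, had 0.86, and the median was 0.54. Over the 130 named features of chromosomes 5, 14, 18, 20 and 21, for those with at least 20 reads, the pair also had a rho of 0.98. The dachshunds of batches 1 and 4, by contrast, differed widely, and 13 of the 44 features lay within 2-fold of the median ratio of 0.0838. Among all 9246 features with at least 200 reads in the dachshund of batch 1, the cocker spaniel's reads were at least 0.553 times the dachshund's in 99%, with a median ratio of 1.05. Whether the 2 libraries share RNA or reads was not tested. Values that rest on the cocker spaniel are therefore given with and without it.

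**Figure D1:**
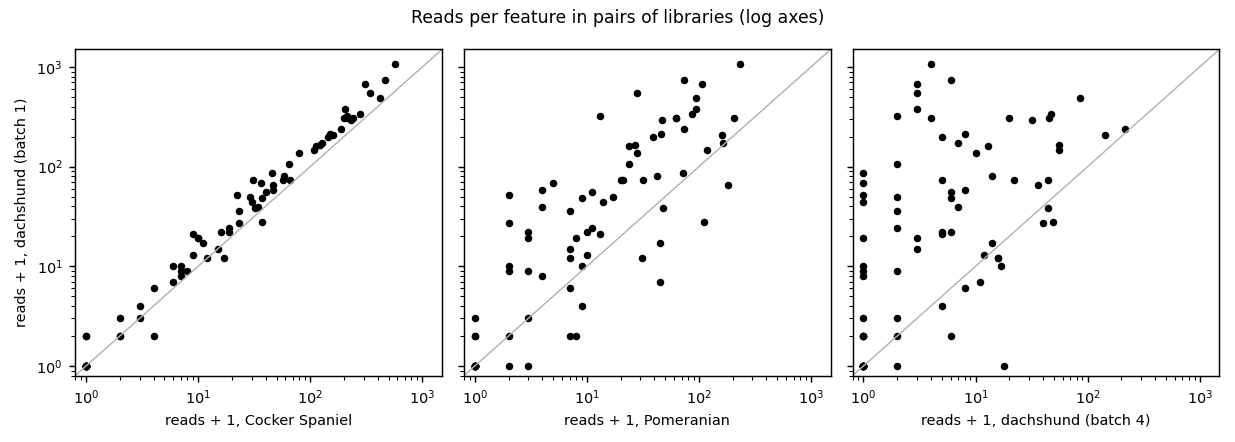
Reads per feature plus 1 in the dachshund of batch 1 (vertical, log axis) against the cocker spaniel, the Pomeranian and the dachshund of batch 4 (horizontal, log axes), 1 point for each of the 78 features, with the line of equal reads. Points of the cocker spaniel follow a narrow band at a median ratio of 0.720, whereas the other 2 panels scatter widely.

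Most of the 78 features were read at low numbers. All reads together came to 33395, and the share of a library's counts ran from 0.00176% in the basset hound (215 reads, 95% Wilson interval 0.00154 to 0.00201) to 0.0275% in the dachshund of batch 1 (8708 reads, 0.0270 to 0.0281). These intervals cover counting error only. No read was counted in any dog for chr25_12, chr25_13, chr_10_5, chr_2_1 and chr_9_16, and 9 further features had under 10 reads over all dogs. After each library was thinned to 10536639 counts, 62 features reached 5 reads in at least 1 dog, and only chr30_16 did so in all 17. The low-count filter of the test kept 31 features and left 47 out, 42 of which had reads. A feature can pass that filter through the class in which it is high, so counts over the 31 are not counts over the 78.

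Reads were concentrated in few features. Chromosomes 15, 30 and 27 held 19.3%, 18.8% and 11.6% of all reads, the unplaced group 8.97%, and the 10 features with the highest mean level 50.0%. Levels are given as CPM, counts scaled to a common library size with TMM (trimmed mean of M-values) factors. The feature with the highest CPM on average over dogs was chr30_12, with 0.203, 4.22 and 64.9 CPM as lowest, median and highest of the 8 Below_10 dogs and 0, 1.27 and 25.9 CPM in the 9 Over_10 dogs. The 64.9 and 25.9 CPM belong to the dachshund of batch 1 and the cocker spaniel. The next were chr_10_4 (0.135, 9.14 and 41.5 CPM in Below_10, 0.219, 3.36 and 13.9 CPM in Over_10) and chr_un_10 (0.135, 7.27 and 33 CPM in Below_10, 1.02, 5.21 and 15.5 CPM in Over_10). In each of these 3 the classes overlapped over most of their range, and in each the dachshund of batch 4 was the lowest Below_10 dog. chr30_16 was read more evenly, with 2.98, 6.95 and 18.7 CPM in Below_10 and 0.877, 3.07 and 9.66 CPM in Over_10 dogs. The make-up of the reads also differed from dog to dog: chr_10_4 alone made up 29.3% of the summed level in the Doberman pinscher, chr_un_10 19.5% in the Labrador of batch 6, chr15_14 18.7% in the dachshund of batch 4 and chr27_24 14.0% in the beagle.

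**Figure D2:**
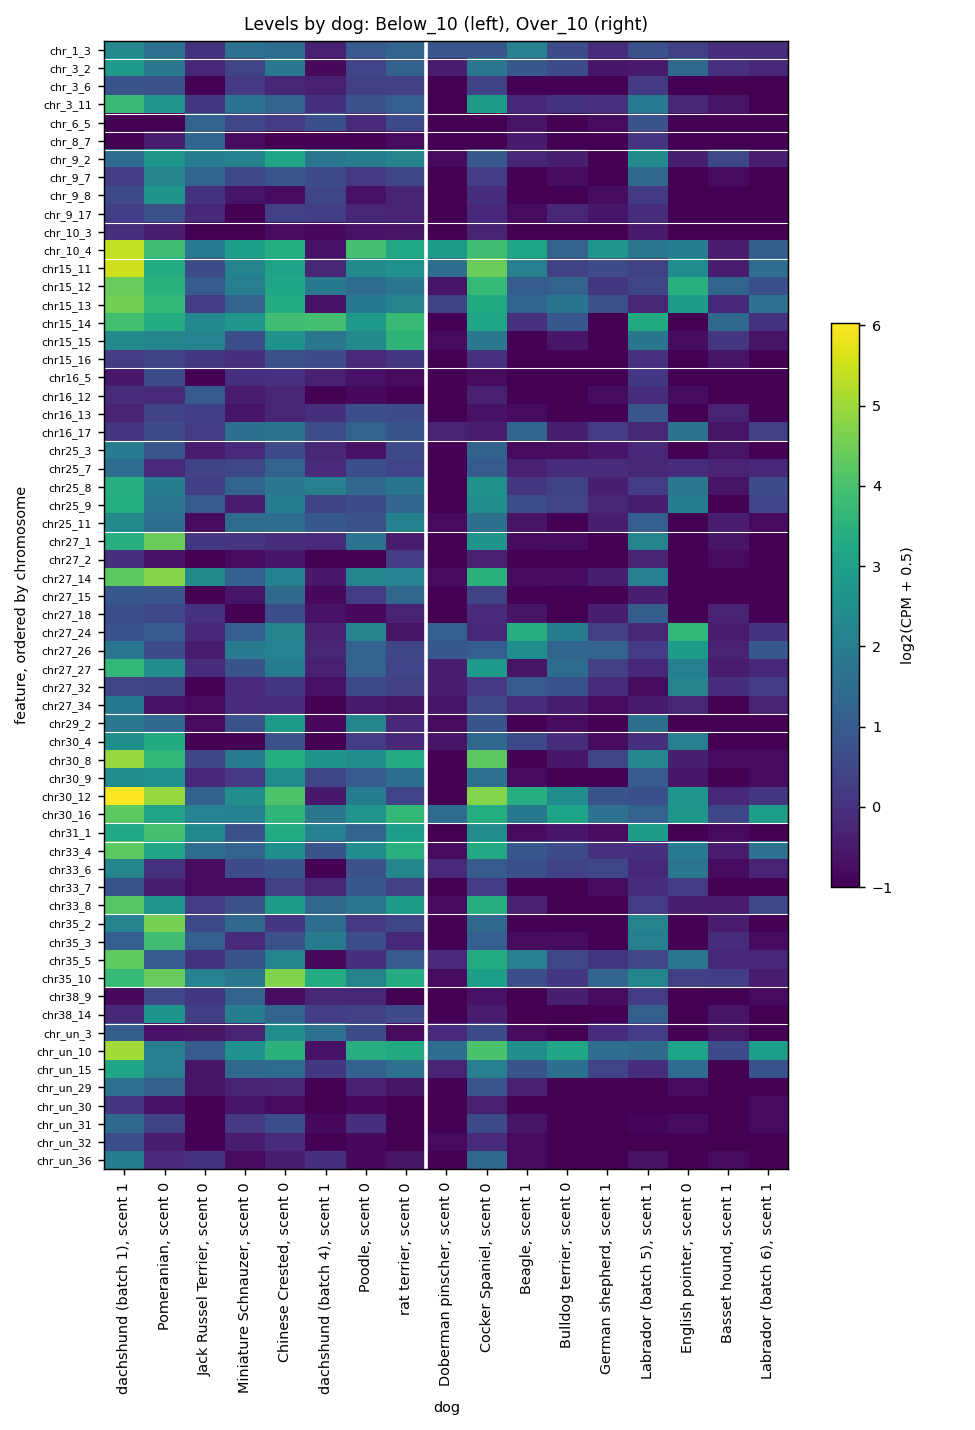
Level of each feature with at least 20 reads (rows, by chromosome) in each dog (columns, Below_10 left and Over_10 right of the white line, scent code in the label), as log2(CPM + 0.5) in colour. Rows such as chr31_1 and chr35_2 are dark in the Over_10 dogs other than the cocker spaniel and the Labrador of batch 5, whereas chr30_16 and chr_un_10 are lit in nearly every dog.

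Over_10 dogs had on average lower summed levels and fewer detected features than Below_10 dogs. Summed over the 78 features, the 8 Below_10 dogs averaged 204 ± 161 CPM (SD) and the 9 Over_10 dogs 75.8 ± 75.8 CPM, or 52.7 ± 32.3 CPM (n = 8) with the cocker spaniel left out. On the log2 scale it was 7.32 ± 1.06 and 5.74 ± 1.25, a difference of -1.58, and the classes overlapped between 65.1 and 261 CPM. The number detected was 43.5 ± 6.09 in Below_10 (range 32 to 50) and 24.7 ± 13 in Over_10 dogs (range 9 to 46). In Over_10 the cocker spaniel had 45 and the Labrador of batch 5, the youngest dog and the only one of its batch, 46. The other Over_10 dogs had at most 24, under every Below_10 dog. Before thinning, the cocker spaniel and that Labrador also had the largest Over_10 libraries, 29240086 and 20809138 counts, against at most 12664228 in the others. Whether age, batch or library bears on their numbers was not tested. No p is given for these sums, because the features were chosen with results of these data known. Within batches the detected number differed by -13.5 (batch 2, 2 dogs of each class), -26.0 (batch 3, 2 Over_10 and 1 Below_10), -12.0 (batch 4, 1 of each) and -26.0 (batch 6, 3 and 2). The log2 sum differed by -0.04, -1.95, -1.40 and -1.86 in the same batches, and the cocker spaniel is 1 of the 2 Over_10 dogs of batch 2. For the 130 named features of the 5 chromosomes left out here, the log2 sum differed by 1.43 the same way (higher in Below_10) and 83.4 ± 12.6 against 43.3 ± 24.3 were detected, so the pattern was not particular to the 78.

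**Figure D3:**
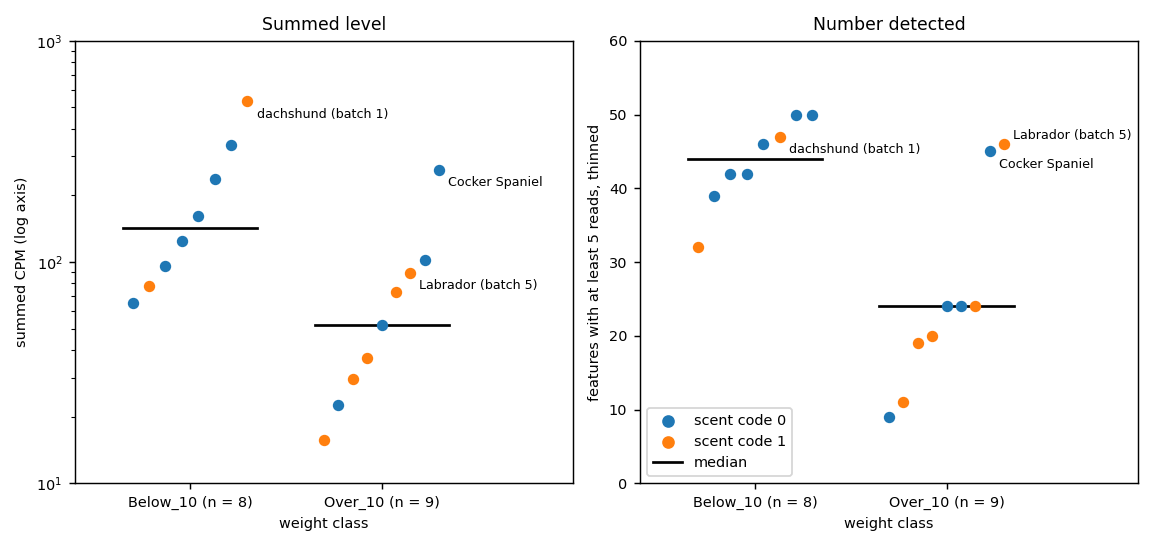
Summed CPM (left, log axis) and number of features with at least 5 reads after thinning (right) for each dog by weight class, coloured by scent code, with the median as a line. The 8 Below_10 dogs have 32 to 50 detected features, and the Over_10 dogs 9 to 24 apart from the cocker spaniel with 45 and the Labrador of batch 5 with 46.

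Most features were detected more often in Below_10 dogs. Of the 61 features detected in some dogs but not in all, 53 were detected in a larger share of Below_10 than of Over_10 dogs (86.9%) and 8 in a smaller share. Over all 6854 features detected in some dogs only, the shares were 46.3% and 53.7%. No feature was detected in Over_10 dogs alone, and 3 were detected in Below_10 dogs alone. Shares over all features were not counted for detection in a single class, so these numbers are a description only. Of the 45 features detected in the cocker spaniel, 43 were also detected in the dachshund of batch 1. chr30_16 and chr_un_10 were detected in all 9 Over_10 dogs.

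Weight class was tested over all features with edgeR's quasi-likelihood test, with batch and scent code in the model. A single feature of the 31 tested passed, chr_9_2, and it was lower in Over_10 dogs. Over all 15955 features tested, 3.62% were called lower and 5.42% higher in Over_10, so 1 of 31 lower (3.23%) and 0 higher is near the background. The level of chr_9_2 was 2.26, 3.62 and 8.26 CPM as lowest, median and highest of the Below_10 dogs and 0, 0.257 and 4.59 CPM in the Over_10 dogs. Every Below_10 dog lay above 8 of the 9 Over_10 dogs, and the exception was the Labrador of batch 5. Its batch holds no other dog, so it does not bear on the fitted change. The fitted log2 change was -3.27 ± 0.75 (SE; edgeR adjusted p = 0.0266). The median fitted change of the 31 was -0.65, with 18 below 0, against a median of 0.03 and 47.8% below 0 over all features. An unadjusted p under 0.05 was found for 5 of the 31 (edgeR), against 26.7% of all features.

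The next smallest p-values belonged to features of chromosomes 15, 31 and 35, and none of them passed. chr15_15 had 1.10, 4.24 and 11.4 CPM in Below_10 and 0, 0.152 and 2.94 CPM in Over_10 dogs (log2 change -3.48 ± 1.14, edgeR adjusted p = 0.0728). chr31_1, the single feature of its chromosome, had 1.18, 5.71 and 15.2 CPM against 0, 0.0731 and 6.76 CPM (-3.42 ± 1.29, adjusted p = 0.112, edgeR). chr15_14 had 4.40, 11.2 and 14.6 CPM against 0, 0.530 and 9.18 CPM, and chr35_10 had 2.98, 9.59 and 25.4 CPM against 0.0784, 0.756 and 7.18 CPM (edgeR adjusted p = 0.149 and 0.158). In these 4, and in chr30_8, chr30_9 and chr35_2, the cocker spaniel and the Labrador of batch 5 were the only Over_10 dogs at or above the lowest Below_10 dog. With chr_9_2, 8 of the 31 tested features had at least 7 of 9 Over_10 dogs under every Below_10 dog, a limit set after the values were seen, against 2.53% of all features tested. Features such as chr30_9 and chr35_2, with Over_10 medians of 0.071 and 0 CPM, can pass the filter through the Below_10 dogs. A feature kept that way is low in Over_10 from the start, so this count is a description and no support for a class difference. In 0 of the 31 were 7 Over_10 dogs above every Below_10 dog, against 2.76%. For 9 of the 31, among them chr15_13, chr27_24, chr35_5, chr_10_4 and chr_un_10, no Over_10 dog lay under the lowest Below_10 dog, against 66.6% of all features tested.

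Leaving out the cocker spaniel changed the number of the 78 called by weight class more than leaving out any other dog. Without it, 9 of 27 tested features (33.3%) were called lower in Over_10 and 0 higher, against a background of 5.43% lower and 6.74% higher over 15854 features (edgeR). The Labrador of batch 5, alone in its batch, does not bear on the coefficient. This fit therefore rests on the Over_10 dogs other than the cocker spaniel and that Labrador. The limit of the filter given above holds for these counts too. Of the 27, 25 had a change below 0 and 11 an unadjusted p under 0.05, against 50.4% and 29.8% of all features. Without any 1 of the other 16 dogs the number called lower was 0 to 3. The 9 lay on 8 chromosomes: chr_9_2, chr15_14, chr15_15, chr25_11, chr27_14, chr30_8, chr31_1, chr33_8 and chr35_10. Their log2 changes without the cocker spaniel ran from -6.16 ± 0.71 for chr31_1 (edgeR adjusted p = 0.00391) to -3.67 ± 0.52 for chr35_10 (adjusted p = 0.00898), and that of chr_9_2 was -4.31 ± 0.69 (adjusted p = 0.0132). With the dachshund of batch 1 left out as well, 11 of 30 were called lower, the same 9 with chr38_14 and chr_9_7, and 0 higher, against 4.23% lower and 6.63% higher over all features. In 7 of the 17 fits without 1 dog no feature of the 78 was called, among them the fit without the bulldog terrier, in which no feature of the whole table was called either. DESeq2 on all 17 dogs called 15 of 55 lower (27.3%) and 0 higher, against 8.09% lower and 8.56% higher over all features.

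Features of the same chromosome did not move as a unit. On chromosome 15, chr15_14 and chr15_15 were at 0 or near it in the Doberman pinscher, the German shepherd and the English pointer (0, 0 and 0 CPM for chr15_14), where chr15_13 was read at 0.784, 1.19 and 6.81 CPM. The dachshund of batch 4 and the Labrador of batch 5 showed the reverse, with chr15_14 at 14.6 and 9.18 CPM and chr15_13 at 0.135 and 0.340 CPM. On chromosome 30 the Doberman pinscher had 0 CPM of chr30_8, chr30_9 and chr30_12 alike. The beagle had 10.2 CPM of chr30_12, the highest Over_10 level after the cocker spaniel, and 0 CPM of chr30_8. On chromosome 35, chr35_2 and chr35_3 were highest in the Pomeranian (23.5 and 14.3 CPM), whereas chr35_5 was highest in the dachshund of batch 1 (19.4 CPM) and had 1.56 CPM in the Pomeranian.

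**Figure D4:**
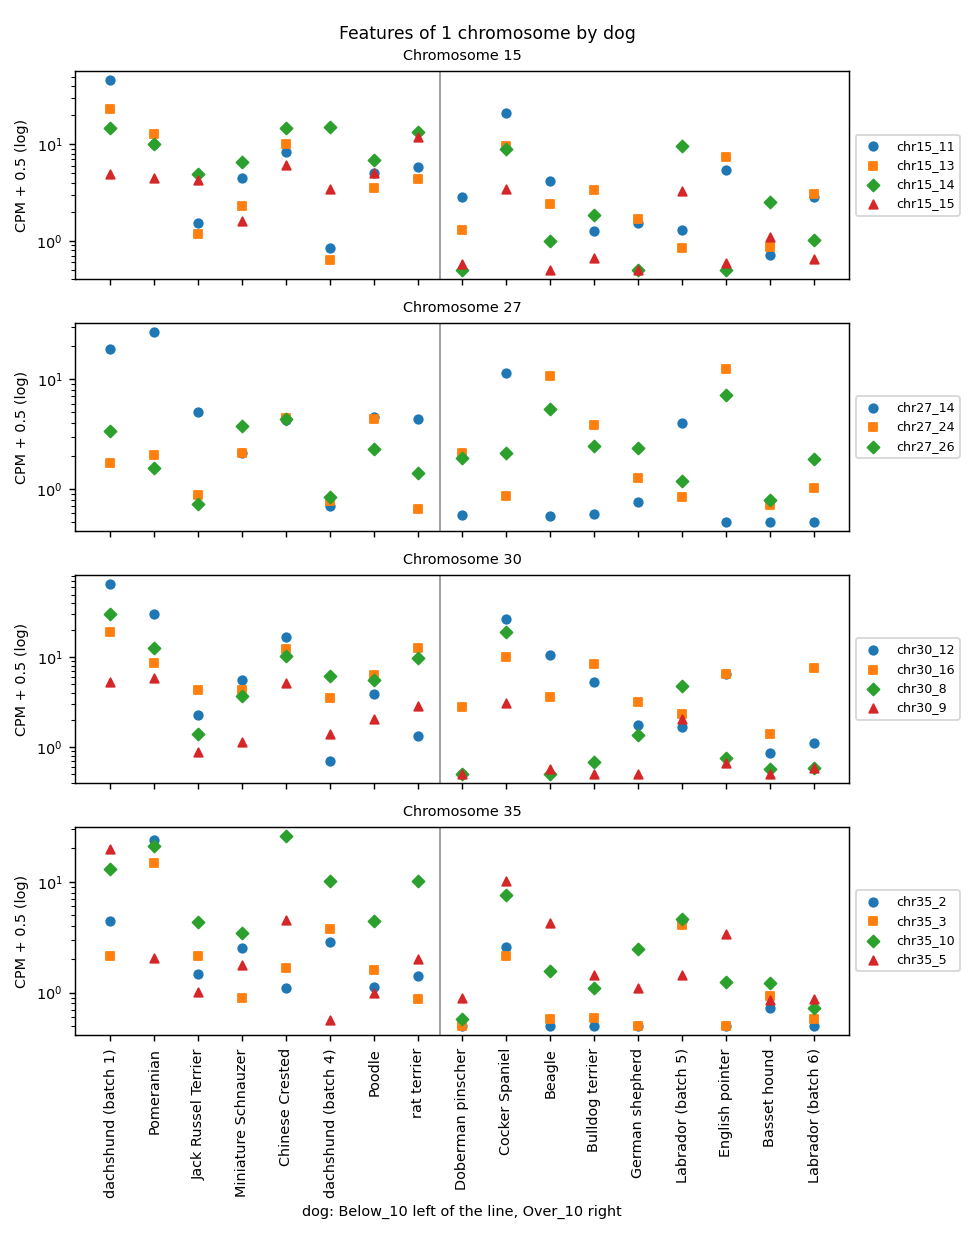
CPM + 0.5 (log axis) of 3 or 4 features of chromosomes 15, 27, 30 and 35 in each dog, Below_10 left and Over_10 right of the line, with a marker for each feature. chr15_14 is at 0 CPM in the English pointer and at its highest, 14.6 CPM, in the dachshund of batch 4, whereas chr15_13 has 6.81 CPM in the former and its lowest level, 0.135 CPM, in the latter.

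Over the 17 dogs these pairings appeared as correlations of log2(CPM + 0.5), which share libraries and depth and are given as a description. Pearson's r was 0.94 for chr30_8 with chr30_9, 0.93 for chr35_2 with chr35_3, 0.92 for chr15_14 with chr15_15 and 0.91 for chr15_11 with chr15_13. Spearman's rho was 0.92, 0.92, 0.85 and 0.88 in that order, and without the dachshund of batch 1 and the cocker spaniel r was 0.94, 0.93, 0.91 and 0.87. Among the 8 Below_10 dogs r was 0.89, 0.82, 0.42 and 0.96. Other pairs of 1 chromosome had lower r, down to -0.22 for chr27_14 with chr27_24 (rho -0.15). It was 0.11 for chr35_3 with chr35_5 (rho 0.10), 0.25 for chr15_13 with chr15_14 (rho 0.25), 0.52 for chr15_12 with chr15_14 (rho 0.58) and 0.56 for chr30_8 with chr30_12 (rho 0.53). It was 0.88 for chr33_4 with chr33_8 (rho 0.84). Equally close pairs lay on different chromosomes, such as chr25_11 with chr30_8 (r = 0.95, rho 0.83) and chr31_1 with chr35_10 (r = 0.94, rho 0.93). Of the 23 pairs whose r rounded to 0.90 or more, 4 shared a chromosome. Over all 465 pairs of the 31 tested features the median r was 0.64, with 0.63 for 36 pairs of 1 chromosome or of the unplaced group and 0.64 for 429 pairs across chromosomes. For all pairs of the 15955 tested features the median r was 0.0, and 8.80% of pairs had r above 0.7, against 38.5% here. Without the dachshund of batch 1 and the cocker spaniel the median among the 31 was 0.50.

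**Figure D5:**
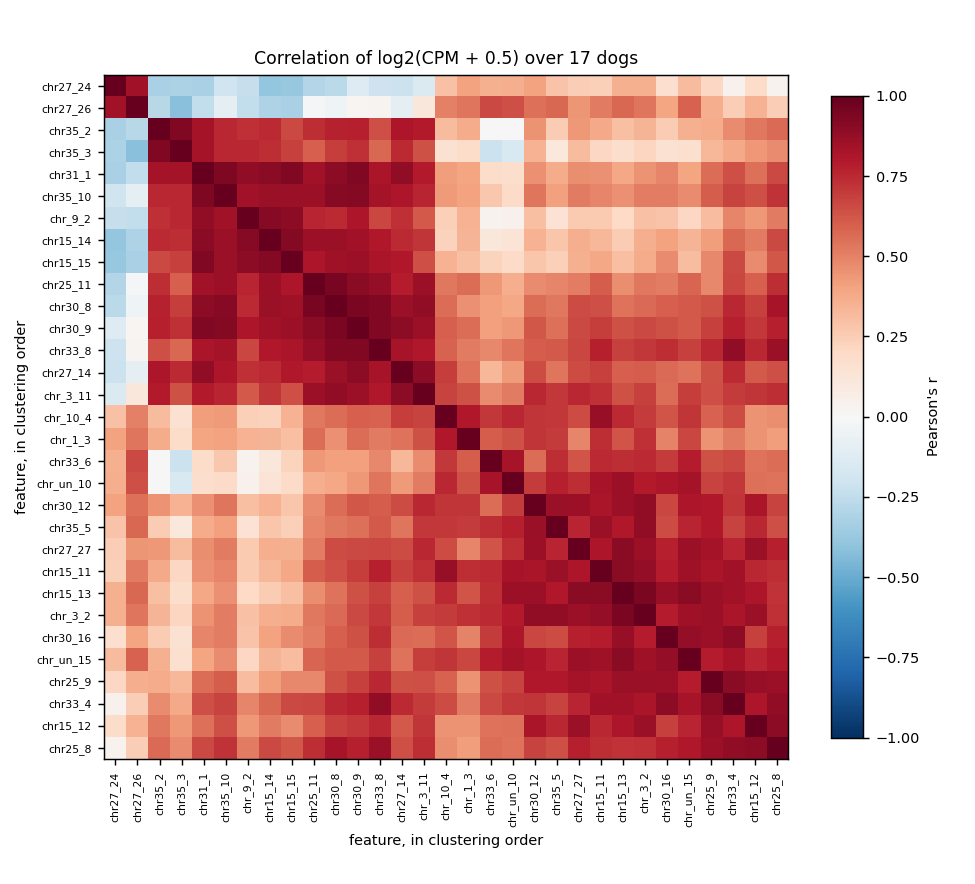
Pearson's r of log2(CPM + 0.5) over 17 dogs for all pairs of the 31 tested features, in the order of an average-linkage clustering. Features such as chr31_1, chr35_10 and chr30_8 form 1 block and chr30_12, chr15_11 and chr15_13 another, and chr27_24 and chr27_26 stand apart from the first block, with r mostly below 0.

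The 10 features of chromosome 27 differed in the dogs that were high. chr27_14 was read in every Below_10 dog (0.203, 3.92 and 26.5 CPM as lowest, median and highest) and at most at 0.255 CPM in Over_10 dogs other than the cocker spaniel (10.9 CPM) and the Labrador of batch 5 (3.49 CPM). chr27_1, which the filter left out, was likewise highest in the Pomeranian (21.2 CPM) and the dachshund of batch 1 (10.4 CPM), with a median of 0.0713 CPM in Over_10. It did not follow chr27_14 in every dog. In the Chinese crested and the rat terrier it had 0.421 and 0.224 CPM, where chr27_14 had 3.79 and 3.81 CPM. chr27_24 had 0.150, 1.39 and 3.96 CPM as lowest, median and highest of the Below_10 dogs and 0.219, 0.764 and 12.0 CPM in Over_10. Its median was thus also the lower in Over_10, but its highest levels were in 2 Over_10 dogs, the English pointer (12.0 CPM) and the beagle (10.3 CPM). chr27_26 was likewise highest in those dogs (6.72 and 4.92 CPM), and r between the pair was 0.84 (rho 0.84). Of the 26 pairs among the 31 tested features with r below 0, 23 involved chr27_24 or chr27_26. The cocker spaniel had 0.361 CPM of chr27_24 and the dachshund of batch 1 had 1.22 CPM. chr27_27 was highest in that dachshund (12.1 CPM) and in the cocker spaniel (6.46 CPM). None of the 4 tested chromosome 27 features passed by weight class with all dogs kept. Fitted log2 changes were -1.91 ± 1.38 for chr27_14 and 1.05 ± 0.92 for chr27_24. For chr27_26 and chr27_27 they were 0.74 ± 0.76 and 0.90 ± 0.83. Without the cocker spaniel the changes were -4.72 ± 0.90, 1.36 ± 0.95, 0.86 ± 0.85 and -0.06 ± 0.76 in that order, and chr27_14 was called. As a share of a dog's summed level, chromosome 27 took 2.34% to 17.3% in Below_10 (median 9.79%) and 8.83% to 26.1% in Over_10 dogs (median 14.9%), and the ranges overlapped.

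The unplaced group was mostly near the floor of detection. Of its 15 features, 8 had under 25 reads over all dogs, 7 reached 5 thinned reads in no dog, and 2 did so in more than 8 dogs. Those 2, chr_un_10 and chr_un_15, were the ones tested. chr_un_15 had 0.149, 2.24 and 8.31 CPM in Below_10 and 0, 1.21 and 3.57 CPM in Over_10 dogs, r between the 2 features was 0.83 (rho 0.84), and neither passed by weight class (log2 changes 0.46 ± 0.83 and 0.14 ± 0.79, edgeR adjusted p = 0.766 and 0.927). Without the cocker spaniel both changes turned below 0 (-0.24 ± 0.82 and -0.52 ± 0.83). chr_un_10 was lowest in the dachshund of batch 4 and the basset hound, and chr_un_15 in the basset hound and the Jack Russel terrier.

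On the other chromosomes the number of features was small. Chromosome 31 took a median of 4.17% of the summed level in Below_10 and 0.287% in Over_10 dogs, and chromosome 9 took 4.68% and 0.861%. For both, the highest Over_10 share was that of the Labrador of batch 5, 7.59% and 8.73%. In contrast, the median shares of chromosome 15 (19.1% and 16.3%), chromosome 30 (14.4% and 16.4%) and the unplaced group (8.15% and 10.2%) lay close together in the 2 classes. A few features went against the sums: chr_6_5 had no read in the dachshund of batch 1, the Pomeranian or the cocker spaniel and was highest in the Jack Russel terrier (1.86 CPM) and the Labrador of batch 5 (1.23 CPM). chr_8_7 had 26 reads in the Jack Russel terrier and 13 in that Labrador, of 46 in all.

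The scent comparison asks whether the same features differ between the 2 codes. None of the 31 passed, against 0.0% of all features called lower and 0.0% higher (edgeR), and 0 of the 31 had an unadjusted p under 0.05, against 1.79% of all features. DESeq2 called 0 of 73 features of this set, against 0.0218% of all features lower and 0.0109% higher. It gave 3 of the 73 an unadjusted p under 0.05, against 590 over all features, with 27482 tested. In the fit, 28 of the 31 had a change below 0 (lower in code 1; median -0.95), against 53.0% of all features (median -0.02). Without the cocker spaniel, which is of code 0, 19 of 27 were below 0 (median -0.41) and 1 had an unadjusted p under 0.05 (edgeR), against 50.2% and 2.97% of all features. Without the batch term the sign of chr31_1 turned. Summed levels averaged 146 ± 102 CPM (SD) over the 10 dogs of code 0 and 122 ± 183 CPM over the 7 of code 1, with 37.1 ± 13.6 and 28.4 ± 13.8 detected, both differences under the spread between dogs. The smallest unadjusted p, 0.0582, belonged to chr27_27, with 0.235, 2.06 and 6.46 CPM in code 0 and 0.143, 0.379 and 12.1 CPM in code 1 (log2 change -2.58 ± 1.23, edgeR adjusted p = 1.0). The next were chr15_13 (0.671, 3.47 and 12.2 CPM against 0.135, 1.19 and 22.9 CPM, log2 change -1.55 ± 1.03) and chr27_14 (0, 3.80 and 26.5 CPM against 0, 0.203 and 18.5 CPM, -2.47 ± 1.75). In each of these 3 the code 1 median was the lower but the dachshund of batch 1 had the highest level of its code. Dogs of both codes shared a batch and a weight class 3 times. The log2 sum of code 1 minus code 0 was 0.66 for the Below_10 pair of batch 1, 0.50 for the Over_10 pair of batch 3, and -2.09 for 2 Over_10 dogs against 1 in batch 6, so the direction was not common to them.

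The summed level moved with the other named features. Over 17 dogs its log2 value had r = 0.95 (rho 0.94) with the log2 sum of the 130 features of chromosomes 5, 14, 18, 20 and 21, and r = 0.92 without the dachshund of batch 1 and the basset hound, the 2 dogs farthest from the median. By chromosome r was 0.90 with chromosome 20, 0.88 with 14 and with 18, 0.78 with 21 and 0.76 with 5 (rho 0.84, 0.82, 0.85, 0.71 and 0.71), and 0.85, 0.78, 0.78, 0.78 and 0.78 without those dogs. The points share libraries and scaling factors, and the libraries with the lowest factors had the highest sums. A low factor itself raises both sums.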

How the data were processed

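Polyadenylated RNA of olfactory epithelium from 17 dogs was sequenced as paired-end reads, per the labels' protocols. The authors deposited whole-number counts per feature without normalization, and log2 values, marked in the file's name as free of a batch effect, which served only as an alternative. The submitters' processing notes name STAR 2.5.3, HTSeq and Trim Galore 0.3.1, beside DESeq2, limma and edgeR, with no role for any. Genome build, annotation, strand setting and the handling of multiply matching reads were not given in the sources used here. Extraction of 4 samples was in 2 separate batches, per the labels' protocols, which do not say which samples these were. The library names of the dachshund of batch 1, the cocker spaniel, the beagle and the Labrador of batch 5 end in rep1. Whether these are the 4 samples is not stated.

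Members and lists were chosen with earlier results of these data known. Counts were tested over the whole table with edgeR 4.0.16 (R 4.3.3; quasi-likelihood F-test, robust; filterByExpr on weight class, minimum count 10; TMM) in a model with batch, weight class and scent code (9 residual degrees of freedom). Calls were made at a Benjamini-Hochberg adjusted p of 0.05 over all features tested. Standard errors are the fitted change over the square root of F. The dog of batch 5 has a batch term of its own and does not bear on the coefficients. Dogs are separate animals, and replicate numbers in accession order only name them. CPM were counts over TMM-scaled totals. Detection means at least 5 reads after thinning to 10536639 counts. Log2 values of single features and of chromosome totals carry 0.5 CPM, and those of the summed level carry none. Named features are those called, the 10 with the highest mean CPM, the 5 with the smallest p for each factor, the tested ones of chromosome 27 and the unplaced group, and those with 0 reads. Further features named for their correlation, their detection or their calls without the cocker spaniel were chosen after their values were seen. Alternatives were DESeq2 1.42.0, other size factors, no filter, no batch term, limma 3.58.1 on the deposited log2 values, leaving out each dog and leaving out the 3 libraries with the lowest TMM factors. Leaving out the dachshund of batch 1 with the cocker spaniel was added after seeing the data. Python 3.11.15 with numpy 2.4.6, pandas 2.3.3 and scipy 1.17.1 did the rest. Groups of dogs were also searched for single far dogs by Dixon's ratio at its 95% critical value.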

Additional observations from a re-analysis of the deposited data

Results flagged for a closer look

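Of 120 groups of 7 to 10 dogs examined for a single dog far from the others, 5 were marked, where chance marks about 1 in 20 groups. All 5 lay in the 7 dogs of scent code 1. The dachshund of batch 1 was far above the next dog in the log2 total of chromosome 33 (5.41 against 2.12, with 0.5 CPM added), in chr15_11 (5.53 against 2.07), in chr15_12 (4.39 against 1.85) and in chr27_27 (3.66 against 0.34). The beagle was far above the next dog in chr27_24 (3.43 against 0.78). In scent code 0 the English pointer, with 12.0 CPM of chr27_24, was not marked.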

How the results depend on the processing

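No paired analysis was possible because the dogs were numbered only by accession and no label pairs them. The 1442 features called by weight class became 3156 with DESeq2, 2614 with limma on the deposited log2 values, 167 without the batch term, and 0 to 1930 with 1 dog left out. The count of 1 called lower among the 78 became 15 with DESeq2, 4 with no low-count filter, 5 with limma on the log2 values, which hold 25 of the 78, 0 without the batch term, 11 without the 3 libraries with the lowest TMM factors, 11 without the dachshund of batch 1 and the cocker spaniel, and 0 to 9 with 1 dog left out. The 9 came without the cocker spaniel. The number tested of the 78 also changed, with 27 to 34 when 1 dog was left out and 55 with DESeq2. For the fits with no filter, with limma, without the batch term and without the 3 lowest TMM factors, shares over all features are not given. Those counts therefore have no background here. None was called higher in these fits. By scent code DESeq2 called 9 of all features and 0 of the 78, and the other fits called 0. The scent change of chr31_1 was -1.90 and turned to 0.08 without the batch term. Without that term chr_9_2 had a weight class change of -2.41 (edgeR adjusted p = 0.128). With 1 dog left out the log2 difference of the sum was -1.87 to -1.33 by weight class and -1.30 to -0.46 by scent code, and the difference in the detected number was -21.5 to -16.9 and -11.8 to -5.77. Other scalings, thresholds and seeds moved these by less than the spread between dogs. The median correlation of 0.64 became 0.45 without the 3 libraries with the lowest TMM factors and 0.59 to 0.66 with other pseudocounts. Causes of these changes were not tested. A library of 10536639 counts and a TMM factor of 1.108, that of the bulldog terrier, give 0.0857 CPM a read, so levels of that size rest on single reads.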
